A study of Caenorhabditis elegans with 2 samples.

Results

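The genes described here drive chromosome segregation, centrosome assembly and DNA replication in the nematode Caenorhabditis elegans. They are 56 genes listed by name and role, drawn up with earlier results of these data known, and all 56 were found in the annotation among 19973 protein-coding genes. DNA that lies with a protein was recovered with an antibody and sequenced (ChIP-seq). Worms of strain OP513, with the genotype unc-119(tm4063) III; wgIs513, carried a transgene for C08G9.2 with a GFP-FLAG tag at its C terminus, and the antibody was against GFP. C08G9.2 has no characterized role in the sources used here. Material came from whole hermaphrodite late embryos at 5 hours after egg bleaching, in 1 group of 2 biological replicates, and all worms carried the same alleles. The labels do not give the promoter that drives the transgene. There was no second condition, untagged worms were not analysed here, and whole embryos mix all cell types, so what follows describes where signal was recovered and makes no test between conditions.

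In dividing cells the kinetochore is built on the centromeric histone and ties each chromosome to spindle microtubules, and the spindle checkpoint holds anaphase until that is done. Worm chromosomes are holocentric, which means that kinetochores form along their whole length. Centrosomes organize the spindle, cyclin-dependent kinases time the phases of the cycle, the anaphase-promoting complex marks cyclins and securin for destruction, and the MCM helicase is loaded at replication origins before S phase. Late embryos still hold dividing cells but many of their cells leave the cycle. In worms, lin-35 and its partners in the DREAM complex are known to repress many cell cycle genes.

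The authors deposited regions, each with a signal value of unstated scale and a summit. A list from both replicates pooled held 30000 regions and, by its deposited label, holds background as well as peaks. A thresholded list, made by irreproducible discovery rate (IDR), held 1416 peaks. A gene was counted as having a peak when a thresholded summit lay within 500 bp of the start of its gene record. The letters under some of these summits are given first, as 7 stretches, each on the strand of its gene. A stretch reaches 50 bases to each side of the summit where that whole window lies outside untranslated regions. The him-10 stretch is instead 30 bases that lie within the 5′ UTR of polq-1, a gene on the other strand, and the sas-5 stretch stops at the gene start. Capitals mark any of the 5 words of 7 bases whose share among the windows at all 1416 summits most exceeded that in windows 500 bp to either side. Coordinates are on ce11, the same assembly as WBcel235.
knl-1, chrIII:8250420-8250520, plus strand: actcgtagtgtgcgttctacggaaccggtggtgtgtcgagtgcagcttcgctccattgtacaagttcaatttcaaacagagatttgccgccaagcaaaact
ndc-80, chrIV:10085810-10085910, plus strand: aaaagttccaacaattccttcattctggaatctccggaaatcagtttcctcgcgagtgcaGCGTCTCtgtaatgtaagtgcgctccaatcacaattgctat
him-10, chrIII:5803116-5803145, plus strand, 30 bases within the polq-1 5′ UTR: ttgtggccgcggTGGCCTAGttttcacggc
zyg-1, chrII:5649573-5649673, plus strand: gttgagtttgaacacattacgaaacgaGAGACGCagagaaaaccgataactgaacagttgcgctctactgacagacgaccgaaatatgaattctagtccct
sas-5, chrV:11610640-11610736, plus strand, 97 bases up to the gene start: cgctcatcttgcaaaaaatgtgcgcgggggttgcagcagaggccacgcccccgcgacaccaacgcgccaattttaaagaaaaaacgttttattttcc
sas-6, chrIV:13788792-13788892, minus strand: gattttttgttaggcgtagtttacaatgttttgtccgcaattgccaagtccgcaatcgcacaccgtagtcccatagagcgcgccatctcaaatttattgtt
bir-1, chrV:11644286-11644386, plus strand: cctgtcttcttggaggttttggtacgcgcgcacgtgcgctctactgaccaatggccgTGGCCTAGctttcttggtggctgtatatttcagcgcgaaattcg

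The him-10 and bir-1 stretches hold the same 8 letters, TGGCCTAG, which join 2 of the 5 words. Those words, CTAGGCC on either strand with TAGGCCA overlapping it, lay in 8.55% and 8.47% of windows at all summits, against 0.388% and 0.706% of the flanking windows. Among the members' own 13 summit windows 3 held them, at him-10, bir-1 and hcp-6. GAGACGC, on either strand, lay in 2 of the 13 windows, at ndc-80 and zyg-1, and in 8.12% of all summit windows against 0.777% of flanking ones. The remaining words, CTCTCTC with the overlapping repeat AGAGAGA, lay in 11.1% and 10.4% of all summit windows and in 0 of the members' 13. In all, 5 of 13 member windows held at least 1 of the 5 words, against 29.4% of all summit windows and 3.99% of flanking windows. The words were picked from peaks that include the members' own, so these counts only describe them. The longest run shared by any pair of the 8 member windows outside the first chromosome was 14 bases, TGCGCTCTACTGAC, in the zyg-1 and bir-1 windows. Of 1416 summit windows 2 held it, and of the flanking windows 0 did.

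Kinetochore and centrosome genes held 12 of the 13 peaks found at these 56 genes, a grouping made after the values were seen. A thresholded peak lay at 13 members (23.2%, 95% exact Clopper-Pearson interval 13 to 36.4), against 825 of all 19973 protein-coding genes (4.13%). By role the counts were 8 of 14 kinetochore and checkpoint genes, 4 of 10 centrosome genes and 1 of 7 genes of the chromosomal passenger complex and spindle. None of the 9 cyclin and kinase genes, the 7 genes of the anaphase-promoting complex or the 9 replication genes had one. The 3 roles without a peak hold 25 genes, for which a count of 0 allows a share of up to 13.7% (upper 95% exact bound), and that range includes the 4.13% of all genes. The intervals of single roles are wide and overlap, from 28.9 to 82.3% for kinetochore genes and from 12.2 to 73.8% for centrosome genes, and the difference between roles was not tested. Intervals treat genes as independent and cover no error between embryos.

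**Figure D1:**
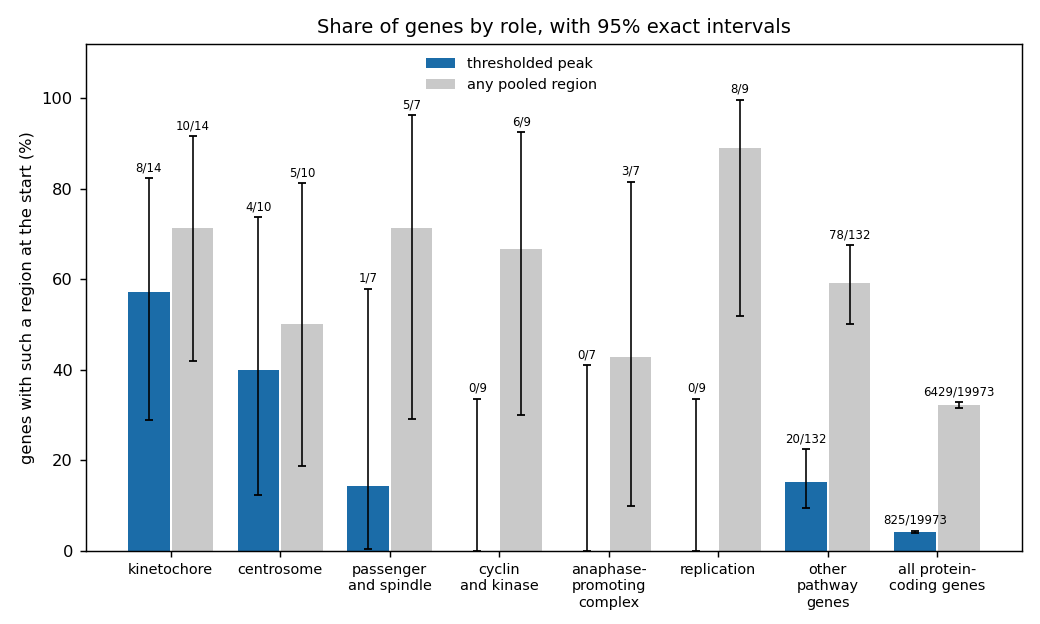
Share of genes (vertical axis, %) with a thresholded peak (blue) or any pooled region (grey) whose summit lies within 500 bp of the gene start, by role, with 95% exact intervals and counts above the bars. Thresholded peaks were found at 8 of 14 kinetochore and 4 of 10 centrosome genes and at 0 of 9 replication genes, although 8 of those 9 had a pooled region.

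Weak regions lay at more roles. Any pooled region, strong or weak, lay at 37 of 56 members (66.1%) and at 32.2% of all protein-coding genes. Replication genes had such a region at 8 of 9 starts and cyclin and kinase genes at 6 of 9. The pooled list is labelled as holding background too, so a weak region may be background. Signals stayed low at the 8 replication genes, from 30.01 to 47.4, against a lowest thresholded signal of 96.98. The pooled rank, where 1 is the highest signal of 30000, had a median of 969.5 over all 14 kinetochore genes, with genes that lack a region placed last, of 6069 over the 7 passenger and spindle genes, of 13483 over the 9 replication genes and of 19839 over the 9 cyclin and kinase genes. Centrosome genes were split, with no pooled region at 5 of 10, so that their median gene had no region, as it did for the anaphase-promoting complex (4 of 7 without) and for all protein-coding genes.

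**Figure D2:**
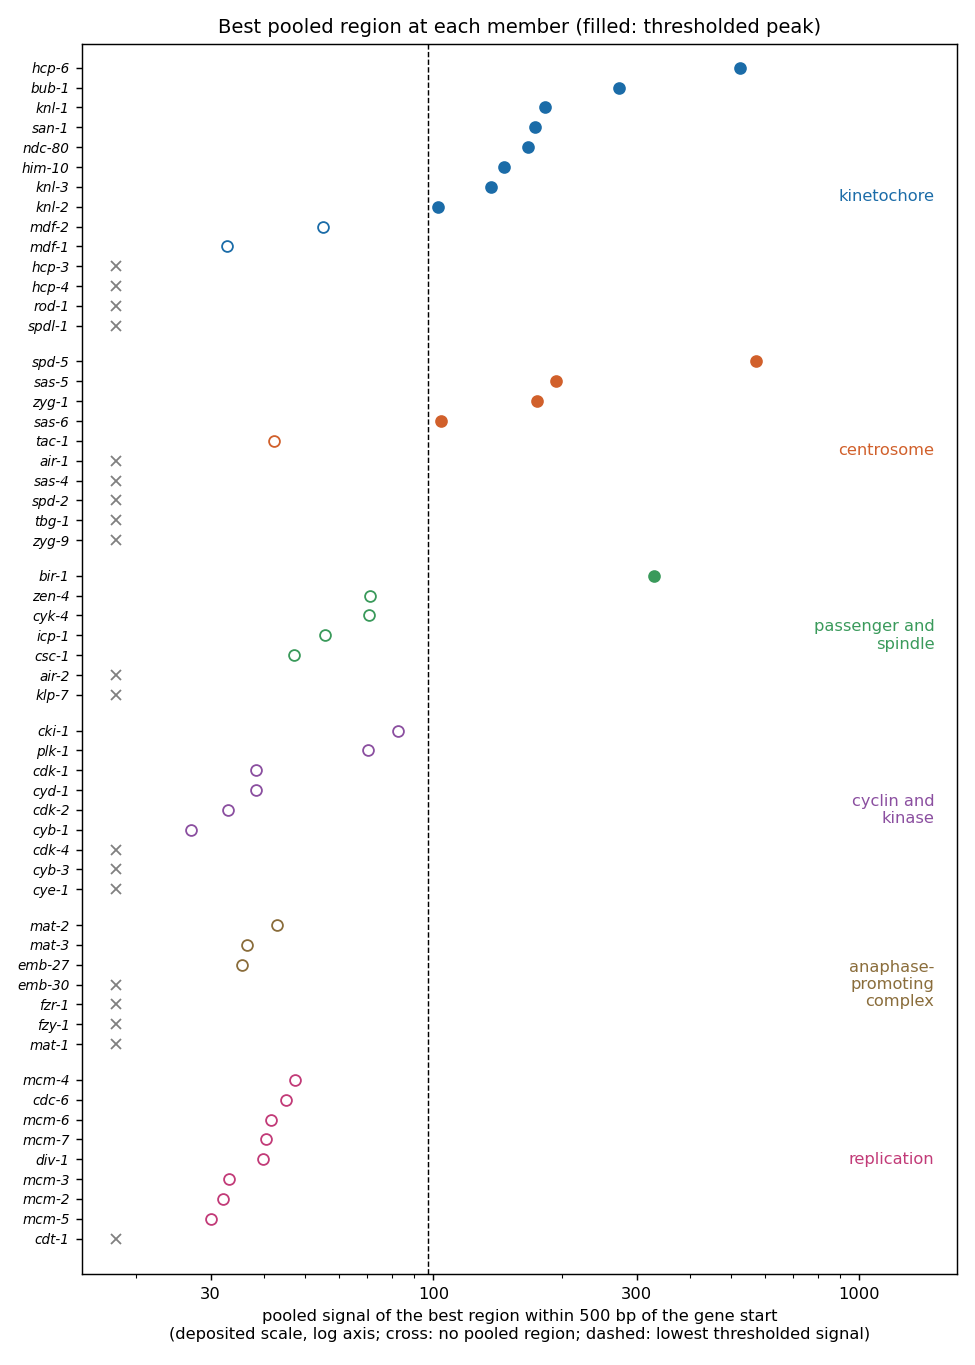
Pooled signal (horizontal log axis, deposited scale) of the highest region within 500 bp of each member's start, by role. Filled circles are thresholded peaks, open circles are weaker pooled regions, crosses are genes with no pooled region, and the dashed line marks the lowest thresholded signal of 96.98. All filled circles but bir-1 are kinetochore or centrosome genes, and the highest open circle is cki-1 at 82.8.

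The condensin gene led the kinetochore group. At hcp-6, which encodes a subunit of condensin II, the complex that compacts mitotic chromosomes, the pooled signal was 524 (rank 40), with signals of 261 (rank 40) in replicate 1 and 259 (rank 51) in replicate 2. The summit lay in intergenic sequence on chromosome I, 123 bp before the hcp-6 start and 141 bp before the start of let-630, which runs the other way. Both replicates placed it among their highest regions. At bub-1, the kinase of the kinetochore and checkpoint, the pooled signal was 272 (rank 229), with 132.5 (rank 215) in replicate 1 and 141.5 (rank 245) in replicate 2. Its summit lay 275 bp before the start and 384 bp before that of lin-61, which encodes an MBT-repeat chromatin protein, so bub-1 was the nearer of the pair.

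The KNL-1, Mis12 and Ndc80 complexes make the outer kinetochore that grips microtubules, and genes from each had a peak, but not all of their genes did. Outside the member list, the kinetochore genes mis-12 and kbp-2 had no pooled region at their starts. Weak ones without a peak lay at kbp-1 (49.1), kbp-3 (44.9), kbp-4 (47.6) and kbp-5 (53.5). Those at kbp-1, kbp-4 and kbp-5 lay nearer to another coding start than to their own. At knl-1, the scaffold, the pooled signal was 183 (rank 445), with 68.8 (rank 633) in replicate 1 and 109 (rank 398) in replicate 2, and the summit window is the first stretch shown above. Its summit lay 162 bp before the start with no other coding start within 500 bp. At knl-3, a Mis12 complex gene, the pooled signal was 137 (rank 696), with 54.6 (rank 1009) in replicate 1 and 82.85 (rank 606) in replicate 2. That summit was the farthest from its gene of all 13, 412 bp before the start, inside the 5′ UTR of T10B5.3, which overlaps knl-3 on the other strand.

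Both Ndc80 complex genes in the list had a peak of middle rank. At ndc-80, whose product binds microtubules, the pooled signal was 167 (rank 516), with 77.8 (rank 520) in replicate 1 and 87.2 (rank 563) in replicate 2, and the summit lay 277 bp before the start and 409 bp before that of the collagen gene col-2. At him-10, the Nuf2 gene, it was 147 (rank 637), with 68.0 (rank 645) in replicate 1 and 79.7 (rank 653) in replicate 2. The him-10 summit, at position 5803159 on chromosome III, lay before its start at 5803260 but within 1 bp of the start of polq-1, a gene for DNA polymerase theta on the other strand, in whose 5′ UTR it falls. The peak is thus nearer to polq-1 than to him-10.

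Among the Mad genes of the checkpoint, only the Mad3 gene had a peak at its start. At san-1 the pooled signal was 173 (rank 484), with 72.5 (rank 580) in replicate 1 and 100.7 (rank 447) in replicate 2, and the summit lay 151 bp before the start. The Mad1 gene mdf-1 and the Mad2 gene mdf-2 had only weak regions at their starts, with pooled signals of 32.7 (rank 20168) and 55.1 (rank 6238). A thresholded peak of signal 120 (rank 898) did lie inside mdf-2, 1280 bp after its start, in the 3′ UTR of an annotated transcript, with ranks of 812 and 1991 in the replicates.

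The inner kinetochore was mixed. At knl-2, needed to load the centromeric histone, the pooled signal was 102 (rank 1243), close to the threshold, with 34.6 (rank 3565) in replicate 1 and 64.8 (rank 988) in replicate 2, and it was among the 1416 highest regions only of replicate 2. The summit lay 12 bp before the start. The centromeric histone gene hcp-3 and the CENP-C gene hcp-4 had no pooled region within 500 bp. Neither had the Rod gene rod-1 nor the Spindly gene spdl-1, both of which bring dynein to kinetochores.

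The highest signal of any member was at the centrosome gene spd-5. SPD-5 is the main scaffold of the pericentriolar material. Its pooled signal was 571 (rank 26), with 259 (rank 44) in replicate 1 and 309 (rank 20) in replicate 2. The summit was the only one of the 13 to lie after the start, by 223 bp, in an intron of spd-5, and it lay 398 bp before the start of the nuclear pore gene npp-6. The peaks of hcp-6 and spd-5 stand at the outer ends of a pair of genes that face each other and overlap at their 3′ ends, hcp-6 at 5165148 to 5171313 and spd-5 at 5171275 to 5176654 on chromosome I.

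Genes that build the centriole came next. At sas-5 the pooled signal was 194.5 (rank 407), with 89.3 (rank 421) in replicate 1 and 97.8 (rank 472) in replicate 2, and no other coding start lay within 500 bp of the summit. The kinase gene zyg-1, which starts centriole duplication, had a pooled signal of 175 (rank 474), with 63.7 (rank 718) in replicate 1 and 114 (rank 369) in replicate 2, at a narrow region of 115 bp. That summit lay 125 bp before the zyg-1 start, 153 bp before that of F59E12.17 and 337 bp before that of sam-4. The start of the non-coding RNA gene F59E12.14 was nearer, at 69 bp. At sas-6, for the cartwheel protein, the pooled signal was 104 (rank 1193) and the ratio of the replicate ranks was the highest of all 13, with 28.7 (rank 6157) in replicate 1 and 66.75 (rank 936) in replicate 2. The sas-6 summit was also nearer to another gene, 65 bp before Y45F10D.7 and 111 bp before sas-6.

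Other centrosome genes had no peak by the 500 bp rule, but for 2 of them a peak lay just past it. A peak of signal 504 (rank 51, and 70 and 39 in the replicates) lay 730 bp before the start of sas-4, which encodes a centriole assembly protein. Its summit was 58 bp before the start of F10E9.11, the gene that ends 89 bp upstream of sas-4 on the same strand. A weaker one of signal 105 (rank 1153, and 1338 and 1658 in the replicates) lay 866 bp before the gamma-tubulin gene tbg-1 and 135 bp before rpac-19, which ends 91 bp upstream of tbg-1 on the same strand. In worms, close genes on 1 strand are often transcribed together from the promoter of the first, and whether that holds for these pairs was not tested. The TACC gene tac-1 had a weak pooled region of signal 42.2. The Aurora A gene air-1, spd-2 (pericentriolar material) and the microtubule polymerase gene zyg-9 had no pooled region at their starts.

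The passenger complex was represented by survivin alone. At bir-1 the pooled signal was 330 (rank 153), with 149 (rank 170) in replicate 1 and 175 (rank 150) in replicate 2, and the summit lay 141 bp before the start with no other coding start within 500 bp. Its partners were weaker, with pooled signals of 55.8 at the INCENP gene icp-1 and 47.0 at the borealin-like gene csc-1, and the Aurora B gene air-2 had no pooled region. The centralspindlin genes, needed for cytokinesis, had pooled signals of 71.1 at zen-4 and 70.6 at cyk-4. The zen-4 summit lay nearer to the snoRNA gene M03D4.78 (115 bp against 224), and the cyk-4 summit nearer to pdr-1 (128 bp against 161). The depolymerizing kinesin gene klp-7 had no region at its start, and a peak of signal 97.7 (rank 1387) lay in one of its coding exons, 3153 bp after the start.

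None of the cyclin and kinase genes had a peak at the start, and the closest was a brake on the cycle. At cki-1, which encodes an inhibitor of cyclin-dependent kinases, the pooled signal was 82.8 (rank 2116), with ranks of 1726 and 3631 in replicates 1 and 2. The Polo-like kinase gene plk-1 followed with 70.4 (rank 3254), and then the mitotic kinase gene cdk-1 with 38.5 and the D-type cyclin gene cyd-1 with 38.3. The S phase kinase gene cdk-2 had 33.0 and the B-type cyclin gene cyb-1 26.96. No pooled region lay at the starts of cdk-4, cyb-3 or the cyclin E gene cye-1. Inside cye-1, however, a strong peak of signal 322 (rank 158, and 181 and 138 in the replicates) lay in an intron, 1017 bp after the start.

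At their starts the genes of the anaphase-promoting complex and of replication had weak regions or none. Subunit genes mat-2, mat-3 and emb-27 had pooled signals of 42.9, 36.5 and 35.5, and the subunit genes emb-30 and mat-1 and the activator genes fzy-1 and fzr-1 had no pooled region. A thresholded peak of signal 132 (rank 744) lay 1886 bp before the fzr-1 start, nearer to sqv-8, from whose start it was 626 bp away. Among the genes of the MCM helicase, the pooled signal was 47.4 at mcm-4, 41.5 at mcm-6, 40.5 at mcm-7, 33.1 at mcm-3, 32.0 at mcm-2 and 30.01 at mcm-5. The best of these ranked 9088. The licensing gene cdc-6 had 45.2 and the polymerase alpha-primase gene div-1 had 39.9. The cdc-6 summit lay nearer to the start of acin-1 (106 bp) than to that of cdc-6 (273 bp). The licensing gene cdt-1 had no pooled region, and its best regions ranked 1716 in replicate 1 and 24769 in replicate 2.

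Peaks at members lay mostly upstream of the start, about as often as over all genes with a peak. Of the 13 summits 12 lay before the start and 1 after it, at a median distance of 141 bp, and all 13 were distinct peaks. Over all 825 genes with a peak 90.2% of summits lay before the start, at a median distance of 207 bp. By annotation 10 of the 13 summits were intergenic, 2 lay in the 5′ UTR of a neighbour and 1 in an intron. Another coding start lay within 500 bp of 8 of the 13 summits, compared with 44% of all genes with a peak, and at him-10 and sas-6 that other start was the nearer one. Non-coding starts also lay within 500 bp of the summits at ndc-80, zyg-1 and bir-1. The signal assigned to such a peak cannot be divided between its genes. The median signal was 175 over the 13 peaks and 135 over the thresholded list, and 11 of the 13 exceeded the list's median. That list also holds peaks away from coding starts. Of all 825 genes with a peak, 508 had one among the 708 peaks of highest signal, as did 11 of the 13 members.

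**Figure D3:**
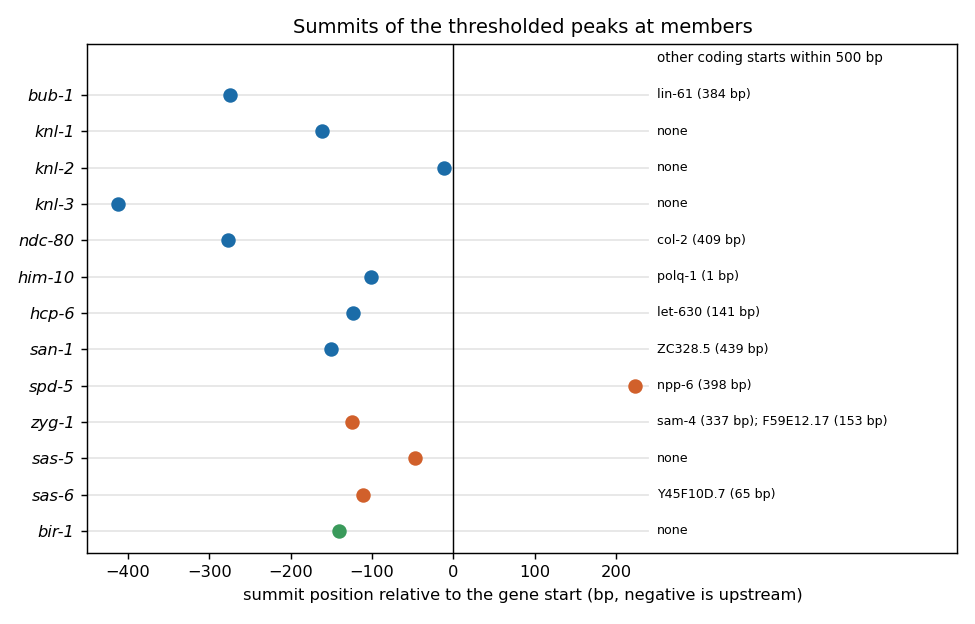
Position of each thresholded summit (horizontal axis, bp from the gene start, negative is upstream) at the 13 members with a peak, coloured by role as in the plot of signals, with the other coding starts within 500 bp of the summit and their distance from it at the right. All summits but that of spd-5 lie before the start, from 12 bp at knl-2 to 412 bp at knl-3.

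The replicates ranked the strongest of these regions alike. When the 1416 regions of highest signal in each replicate were taken in place of the thresholded list, 11 members had one in replicate 1 and 13 in replicate 2, where 3.97% and 4.14% of all protein-coding genes did. The 2 missing from replicate 1 were knl-2 and sas-6, and without them the counts were 7 of 14 kinetochore and 3 of 10 centrosome genes. Of the 29 members with a region in both replicate lists, the best regions overlapped by at least 1 bp at 25, which are all 13 with a peak and 12 others. The thresholded list was made by IDR, and it holds exactly the 1416 regions of highest signal in the list pooled from both replicates. High ranks and overlap at the 13 were therefore partly set by that choice. They are not separate evidence of agreement. No region of any of the 3 lists lay at 10 members, among them rod-1, spd-2, cyb-3 and fzy-1. The overlap at 25 and the lack of a region at 10 were not counted over all protein-coding genes, so they only describe the members. The members nearest the lowest thresholded signal of 96.98 were knl-2 (pooled signal 102) and sas-6 (104) above it, with the next, knl-3, at 137, and below it cki-1 (82.8), zen-4 (71.1) and cyk-4 (70.6).

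**Figure D4:**
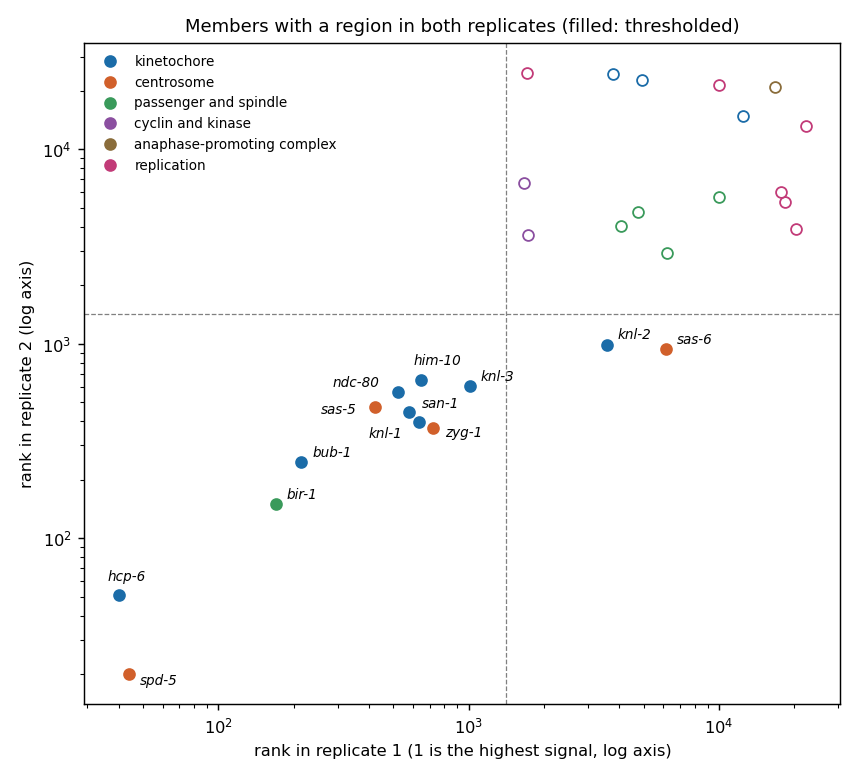
Rank of the best region in replicate 1 (horizontal) and replicate 2 (vertical) on log axes, where 1 is the highest signal, for the 29 members with a region in both. Filled circles have a thresholded peak, open circles have none, colours give the role, and dashed lines mark rank 1416. Of the filled circles 11 lie in the lower left corner, while knl-2 and sas-6 pass the line only in replicate 2.

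The promoters were also searched for letters known from cell cycle control, in the 250 bp before and 50 bp after each start, on both strands. The E2F-type site GCGCGAAA was in 2 of the 13 promoters with a peak and 5 of the 43 without, and in 1.15% of all 19973 coding promoters. TTCCCGCC was in 0 of 13 and 1 of 43, against 1.1% of all. The letters TTTGAA, a form of the cell cycle gene homology region, were in 11 of 13 and 29 of 43, and in 62.6% of all promoters, and the form TTCGAA in 1 of 13 and 11 of 43, against 18.2% of all. The bir-1 stretch above holds GCGCGAAA near its end, the sole one among the 13 summit windows. Of the words chosen from the peaks themselves, CTAGGCC was in 3 of the 13 promoters and 0 of the 43, and in 1.73% of all, and TAGGCCA was also in 3 of 13 and 0 of 43, against 2.35% of all. GAGACGC was in 1 of 13 and 6 of 43, against 4.33% of all. CTCTCTC was in 1 of 13 and 1 of 43, against 6.79% of all, and AGAGAGA in 1 of 13 and 1 of 43, against 8.85%. The members' summit windows had a median GC content of 44.6%, from 39.6 to 54.5%, against 50.5% over all summit windows and 35.6% in the flanking windows. No match or lack of one shows whether a factor binds there.

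Other genes of the same pathways, from a list of 139 names written by role of which 132 were found, had a peak at 20 starts (15.2%, 95% exact interval 9.51 to 22.4), against 4.13% of all protein-coding genes. Replication was not empty there. Of 39 further replication genes 8 had a peak (20.5%, 95% exact interval 9.3 to 36.5), led by mcm-10, an initiation factor, with a pooled signal of 459 (rank 74), and pole-1, the catalytic subunit of DNA polymerase epsilon, with 420 (rank 94). The GINS genes psf-2 and psf-1, whose complex acts with the MCM helicase, had signals of 351 and 210, and pola-1, the catalytic subunit of polymerase alpha, had 258. The clamp loader genes rfc-2 and rfc-4 had 204 and 137, and the PCNA gene pcn-1 had 100 (rank 1313). Other genes of the same complexes had none. The GINS genes psf-3 and sld-5 and the polymerase epsilon gene pole-2 had no pooled region, and the clamp loader genes rfc-1 and rfc-3 had weaker ones of 78.5 and 39.8. The primase genes pri-1 and pri-2 had 28.55 and 70.05, and the pri-1 summit lay nearer to the start of F58A4.6 than to its own.

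Of 13 further kinetochore and checkpoint genes 1 had a peak (7.69%, 95% exact interval 0.195 to 36), and that interval includes the 4.13% of all genes. This was czw-1, the partner of rod-1 in the complex that recruits dynein (signal 176.5, rank 470). Of 29 further centrosome and spindle genes 2 had one (6.9%, 0.846 to 22.8, which also includes 4.13%), spat-1 (signal 435), whose product activates PLK-1, and cls-3 (153), a CLASP family gene. Of 21 further cyclins and regulators 3 had one, lin-35 (976, rank 3), the inhibitory kinase gene wee-1.3 (107) and the kinase gene cdk-7 (100). Of 30 genes of anaphase and cohesion 6 had one, the cohesin gene smc-3 (382), tim-1 (188), the cohesin loader gene mau-2 (176), smc-5 (166.5) and smc-6 (107), which form a repair complex, and the securin gene ify-1 (144). The peaks of spat-1, lin-35, smc-3 and tim-1 lay nearer to the start of another coding gene than to their own. Those of psf-1, rfc-4, wee-1.3, smc-5 and tim-1 lay nearer to the start of a non-coding gene than to their own. At tim-1 the nearest of these was the snRNA gene sls-2.8. The signals of such peaks cannot be divided between their genes. The kinetochore members, with 8 of 14, and the further kinetochore genes, with 1 of 13, were not tested against each other. The 8 include the condensin II gene hcp-6. The condensin II genes capg-2 and kle-2, which had no pooled region, were instead counted with anaphase and cohesion.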

How the data were processed

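Both replicates were deposited as region lists on ce11, with a pooled list and an IDR thresholded list, per the deposited text records. The authors' signal per region has an unstated scale, so it was used to describe and rank regions within 1 list. The deposited −log10 q-values were used in no test. The caller, its settings and the threshold are unknown here, and the lists hold no read counts, so depth is unknown. The 4 lists on ce10 were not used. All 1416 thresholded peaks are the 1416 pooled regions of highest signal. Gene starts came from Ensembl release 115 and sequence from the RefSeq WBcel235 genome, and 0 regions ran past a chromosome end. The summit rule was checked on simulated starts. Intervals are 95% exact Clopper-Pearson. The members, roles, pathway list and motifs were chosen with earlier results of these data known, so nothing here is independent support for them. The genes named are every member and every pathway gene with a peak. Some pathway genes without a peak were also named, after values were seen. Peaks in gene bodies or past 500 bp, the 5 words of 7 bases and the shared run were likewise added after values were seen. Calculations used Python 3.11.15, pandas 2.3.3, numpy 2.4.6 and scipy 1.17.1.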

Additional observations from a re-analysis of the deposited data

How the results depend on the processing

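The count of 13 members with a peak was 10 with a 250 bp window (2.53% of all protein-coding genes) and 15 with a 1000 bp window (5.6%), where sas-4 and tbg-1 came in. It was 11 among the 708 peaks of highest signal (2.54%) and 11 when a peak counted only for its nearest start (3.23%). With any transcript start (4.52%), or any base of the peak in the window (4.76%), it stayed at 13, and leaving out each replicate gave 11 to 13. Genes with no other coding start within 500 bp gave 8 of 38, against 547 of 17734 among all protein-coding genes of that kind. Kinetochore genes with a peak were 5 rather than 8 with the 250 bp window, which lost bub-1, knl-3 and ndc-80, and leaving out each replicate gave 7 to 8. Centrosome genes gave 1 of 5 when no other coding start was allowed, from fewer genes, and 3 to 4 when each replicate was left out. Cyclin and kinase, anaphase-promoting complex and replication genes had 0 under every one of the 9 alternatives. Some of these only narrow the main rule, so a count of 0 could not change under them. They are the 250 bp window, the 708 highest peaks, the nearest start and no other coding start. All protein-coding genes with a peak numbered 505 with a 250 bp window and 508 among the 708 highest peaks. They numbered 547 of the 17734 with no other coding start nearby, and 792 to 826 when a replicate was left out. The median pooled rank of all members, 14664, was 26646 with a 250 bp window and 9012 with a 1000 bp window. With a replicate left out, the median rank within the list of the other was 14594 of 27783 regions for replicate 1 alone and 14327 of 29382 for replicate 2 alone, lists of other lengths that cannot be read as a shift. Best regions of the replicates overlapped by at least 50% of each at 22 of 29 members. Depth is unknown, so a missing region is not evidence of absence. No paired analysis was possible because there was 1 group.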
